A study of Mus musculus with 6 samples.

Results

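The genes described here are Trp53, which encodes the tumour suppressor p53, its 2 main negative regulators Mdm2 and Mdm4, and 7 further genes that p53 is known to induce: Ccng1, Bax, Bbc3, Pmaip1, Zmat3, Trp53inp1 and Phlda3. They are named by their place in the pathway and were taken as the rows of the deposited gene count table that carry these symbols, with earlier results of these data known. All 10 were found, of 52636 genes in the table, and all 10 passed the filter on low counts. The study asked which transplantable mouse mammary tumour lines are usable models of estrogen receptor-positive breast cancer, and RNAseq was performed on cultured J110 and SSM3 cells, with 3 biological replicates of each and no drug treatment named in the labels. J110 cells came from mice that express an AIB1 (Ncoa3) cDNA from the MMTV LTR, a mammary-active viral promoter. SSM3 cells came from a mammary tumour of a mouse on the 129SvEv background. The strain of the J110 mice and the age of the animals are not given in the sources used here. Both media held serum, insulin and hydrocortisone, and the SSM3 medium also held β-mercaptoethanol, transferrin and more serum, under a higher CO2 level. Each model is 1 cell line, so the line, the mouse background and the culture medium cannot be told apart in any difference below.

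p53 is a transcription factor that is kept at a low level by the ubiquitin ligase Mdm2, which p53 itself induces, and its transactivating domain is also masked by the related protein Mdm4. DNA damage, ribosomal stress and oncogene signalling release p53 from this control, and its targets then arrest the cell cycle, repair DNA, change metabolism or start apoptosis. Loss of p53 function is common in mammary tumours of mice and women, and cells without it usually hold lower levels of many targets, each of which also has other regulators.

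The libraries were made with the QuantSeq 3′ kit, so a count is a read from near the 3′ end of a polyadenylated transcript, and total counts per library lay between 4200785 and 5416305. Levels are given in CPM, which scales each count to its library size, here after TMM adjustment. They are not divided by transcript length, and each gene is compared between the lines, not with other genes. A count of 3 equals 0.578 to 0.668 CPM, depending on the library. A fold against a line at 0 is given as a lower bound, against the highest such value among the libraries of that line, 0.626 CPM for J110 and 0.668 CPM for SSM3. Bounds and intervals of this kind cover counting error only. Genes of a ribosomal RNA locus held 15.1% to 17.2% of the counts in J110 libraries and 0.779% to 1.27% in SSM3 libraries, and without these genes all 10 members kept their side of the threshold. The labels name both lines mammary cancer. The epithelial keratins Krt8 and Krt18 had at least 4223 counts in each of the 6 libraries, while the epithelial marker Epcam was near the floor in J110, at 2, 1 and 7 counts against 2376, 2404 and 2412 in SSM3. Summed over 5 epithelial markers, the level was 2677 to 2766 CPM in J110 and 11880 to 13070 CPM in SSM3. Most of the SSM3 sum came from Krt19, at 74, 59 and 143 counts in J110 and 33815, 32985 and 38701 in SSM3, while Krt18 was lower in SSM3 (log2 fold change -0.56). Fibroblast markers summed to 1.54 to 1.98 CPM and 0.398 to 1.91 CPM, with Col1a2 and Lum at 0 throughout. Leukocyte markers summed to 0 to 0.209 CPM and 0 to 0.425 CPM, with Itgam and Adgre1 at 0. Endothelial markers summed to 158 to 181 CPM in J110 and 0 to 0.425 CPM in SSM3, nearly all of it from Cdh5, with Tie1 at 0 throughout. The part of this difference in marker levels in the results below was not tested.

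The gene of the J110 transgene could not check the labels. Whether 3′ reads of the transgene, a cDNA, are counted as mouse Ncoa3 was not tested. Ncoa3 was counted 110, 106 and 102 times in the J110 libraries and 181, 199 and 186 times in the SSM3 libraries (log2 fold change 0.91, SE 0.12, adjusted p = 2.94e-06), and shares exons with Sulf2 on the opposite strand. Directions between the lines follow the labels. Besides Epcam, the epithelial cadherin gene Cdh1 set the libraries apart, at 21, 11 and 28 counts in those labelled J110 against 6019, 6369 and 7179 in those labelled SSM3.

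Of the 10 genes, 7 were lower in SSM3 than in J110, 1 was higher, and 2 did not pass the test (edgeR's quasi-likelihood test, adjusted p below 0.05 over 12284 genes). The 7 were Ccng1, Phlda3, Mdm2, Bax, Trp53inp1, Trp53 and Pmaip1. Mdm4 was the gene that was higher, and Zmat3 and Bbc3 did not pass. The 2 lines differed in most genes: of all genes tested, 77.9% passed, 38.6% as higher and 39.2% as lower in SSM3. The 80% of the members that passed lies near that background, while the 70% that were lower compares with 39.2% and the 10% that were higher with 38.6%. In 9 of the 10 genes the levels of the 2 lines did not overlap, which was so for 79.6% of all genes tested. The median log2 fold change, SSM3 minus J110, was -0.82 over the 10 genes and -0.01 over all genes tested. At least a 2-fold lower level was found for 4 members that passed (Mdm2, Ccng1, Phlda3 and Pmaip1), against 22.5% of all genes. Pmaip1 passed the filter on low counts only through J110, where it is high. Among the 9 members with at least 10 counts in every library, 6 were lower and 1 was higher, with a median of -0.74, beside 37.3% lower and 38% higher among the 9686 genes tested with that filter. With 3 libraries a line, no exact permutation test of a single gene can give a p below 0.1.

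**Figure D1:**
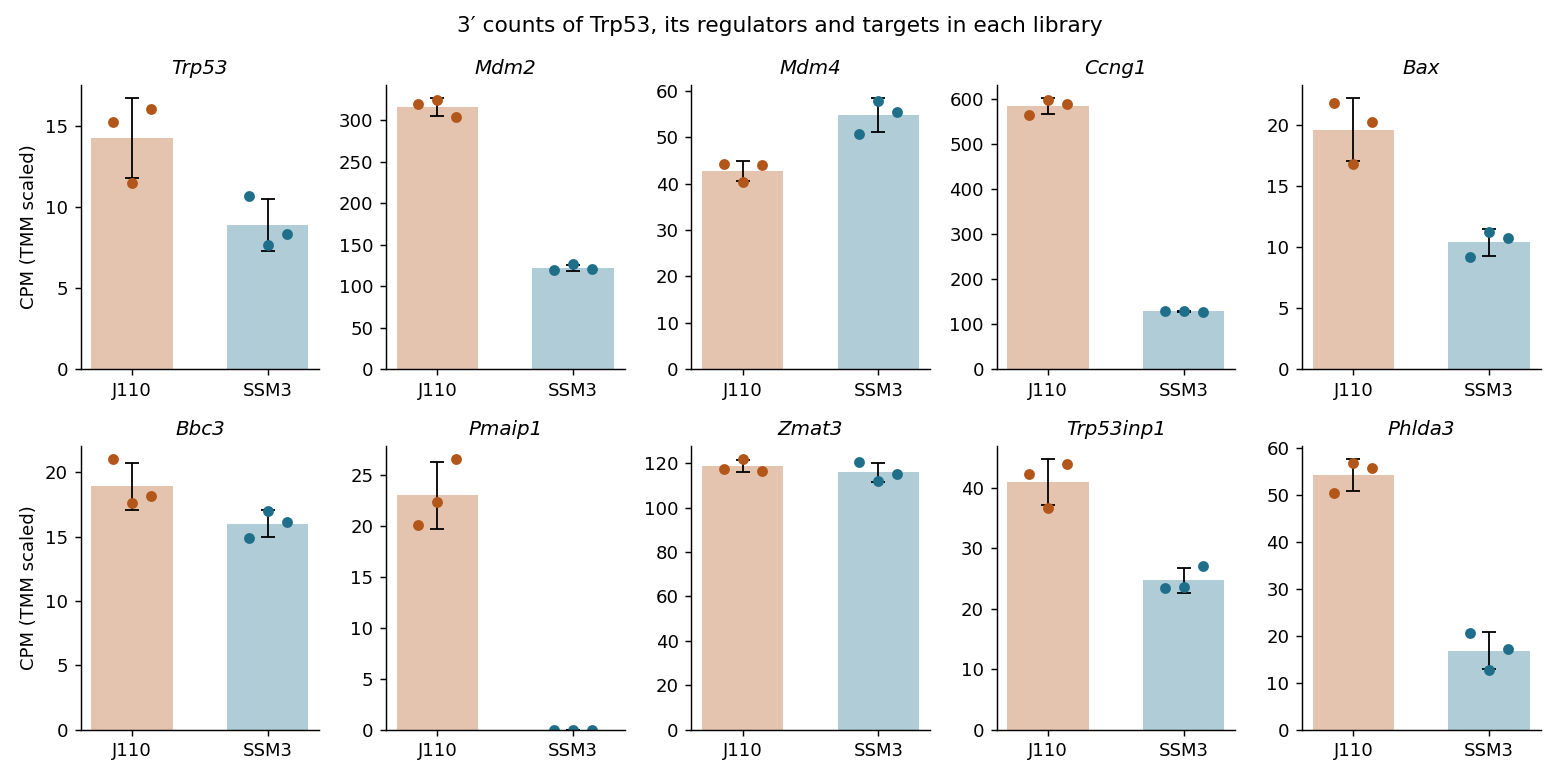
Level of each of the 10 genes in CPM after TMM scaling (vertical axes, each gene on its own scale from 0). Points are libraries, bars are means and error bars are SD over 3 libraries of J110 cells (orange) or SSM3 cells (blue). The points of the lines overlap for Zmat3 only, Mdm4 is higher in SSM3, and Pmaip1 is at 0 in all 3 SSM3 libraries.

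p53 binds DNA as a tetramer, at sites made of a pair of 10-base p53 consensus decamers with up to 13 bases between them. The reference promoters of the genes were read from RefSeq (GRCm38.p6, the mm10 assembly) as windows from 250 bases before to 50 bases after an annotated start. The table held a window for 7 of the 10 genes, 10 windows in all, and none for Pmaip1, Zmat3 or Trp53inp1. Each window was searched on both strands for an exact decamer, and for a full site of 20 bases with at most 3 mismatches that kept the central C and G of both decamers. The stretches printed are the ones of the 4 genes with an exact decamer, from 250 to 31 bases before the start, on the strand of the gene. Capitals mark the full site where there was one, and the single decamer in Mdm2.
Ccng1: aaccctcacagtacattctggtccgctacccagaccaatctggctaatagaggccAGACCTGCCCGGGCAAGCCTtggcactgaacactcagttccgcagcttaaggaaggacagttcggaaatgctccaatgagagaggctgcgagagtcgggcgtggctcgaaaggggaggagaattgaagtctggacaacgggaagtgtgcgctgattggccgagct
Bax: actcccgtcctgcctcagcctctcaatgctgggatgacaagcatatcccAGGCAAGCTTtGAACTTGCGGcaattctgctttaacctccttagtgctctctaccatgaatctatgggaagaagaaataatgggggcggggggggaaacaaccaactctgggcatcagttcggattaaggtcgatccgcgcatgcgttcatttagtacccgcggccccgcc
Mdm2: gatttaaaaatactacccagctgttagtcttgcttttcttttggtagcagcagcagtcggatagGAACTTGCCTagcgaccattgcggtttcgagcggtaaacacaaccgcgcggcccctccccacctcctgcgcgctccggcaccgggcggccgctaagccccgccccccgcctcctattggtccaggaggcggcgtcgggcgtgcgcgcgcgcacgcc
Trp53: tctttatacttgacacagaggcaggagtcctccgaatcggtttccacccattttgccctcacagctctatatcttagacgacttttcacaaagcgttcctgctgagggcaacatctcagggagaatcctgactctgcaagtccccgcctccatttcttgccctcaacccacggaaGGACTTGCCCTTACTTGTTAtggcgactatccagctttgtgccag
The Ccng1 stretch, chr11:40755317-40755536 on the reverse strand, holds a full site with 1 mismatch and no base between the decamers, 195 to 176 bases before the start. A full site with at most 1 mismatch was present in 0.627% of all 32851 windows. The Bax stretch, chr7:45466929-45467148 on the reverse strand, holds a site with 2 mismatches and 1 base between the decamers, 201 to 181 bases before the start, and 4.09% of all windows held one with at most 2 mismatches. The Trp53 stretch, chr11:69580109-69580328 on the forward strand, holds a site with 3 mismatches 75 to 56 bases before the start, as loose a match as was found in 15.6% of all windows. In Mdm2, chr10:117710789-117711008 on the reverse strand, an exact decamer starts 186 bases before the start of the upstream promoter, with no full site around it, and 8.36% of all windows held an exact decamer. The best-known p53 sites of Mdm2 lie by its internal promoter in the first intron, outside this window. Windows of Mdm4 and Bbc3 held sites with 3 mismatches, and that of Phlda3 held neither a full site nor an exact decamer, which says only that these letters are not in this window. These are matches in the reference genome, not measured binding, and the sequence of either line was not analysed here.

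Trp53 itself (chr11:69580359-69591873, forward strand) was counted 79, 58 and 77 times in the J110 libraries and 48, 36 and 42 times in the SSM3 libraries. The SSM3 libraries all lay below the J110 libraries. The level was 14.3 ± 2.45 CPM in the J110 libraries against 8.90 ± 1.59 CPM in the SSM3 libraries (SD, n = 3), a log2 fold change of -0.68 (SE 0.20, adjusted p = 0.00557). The transcript was thus present in both lines, and the processed pseudogene Trp53-ps had 0 counts in every library. Without single libraries the log2 fold change ranged from -0.83 to -0.58. p53 is controlled mostly through the stability of its protein, which counts of its mRNA do not show.

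Mdm2 (chr10:117688875-117710758, reverse strand), the ubiquitin ligase that marks p53 for degradation and is induced by it, was counted 1660, 1639 and 1459 times in the J110 libraries and 538, 596 and 607 times in the SSM3 libraries. Every SSM3 library was well below every J110 library. The level fell from 316.2 ± 10.4 CPM in the J110 libraries to 122.4 ± 3.66 CPM in the SSM3 libraries (SD, n = 3), a log2 fold change of -1.37 (SE 0.07, adjusted p = 3.61e-11). This 2.58-fold difference was larger than 2-fold also when that was the hypothesis tested, by glmTreat (adjusted p = 3.79e-05).

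Mdm4 (chr1:132959484-133030561, reverse strand), the relative of Mdm2 that blocks p53 without degrading it by itself, was counted 229, 204 and 211 times in the J110 libraries and 228, 273 and 279 times in the SSM3 libraries. The raw counts touch, but after scaling for depth the lines did not overlap, at 42.8 ± 2.16 CPM in the J110 libraries against 54.8 ± 3.66 CPM in the SSM3 libraries (SD, n = 3). The log2 fold change was 0.36 (SE 0.10, adjusted p = 0.00358), a 1.28-fold higher level in SSM3. Mdm4 is not a general p53 target, and of these genes it was the one that was higher in SSM3. The pseudogene Mdm4-ps had at most 2 counts in any library.

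Ccng1 (chr11:40748552-40755311, reverse strand), which encodes cyclin G1, a p53-induced partner of a phosphatase that acts on Mdm2, was counted 2923, 3020 and 2822 times in the J110 libraries and 580, 609 and 640 times in the SSM3 libraries. The SSM3 libraries lay close together and far below those of J110. The level was 583.2 ± 17.6 CPM in the J110 libraries against 128.6 ± 1.10 CPM in the SSM3 libraries (SD, n = 3), a log2 fold change of -2.18 (SE 0.07, adjusted p = 5.07e-14). The 4.53-fold lower level was the largest fitted fold change among the 9 members that had counts in both lines. Leaving out single libraries moved the log2 fold change between -2.22 and -2.17.

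Phlda3 (chr1:135766119-135769136, forward strand), a p53-induced inhibitor of the kinase Akt, was counted 262, 287 and 267 times in the J110 libraries and 93, 60 and 86 times in the SSM3 libraries. The highest SSM3 library was far below the lowest J110 library, although the SSM3 libraries spread more among themselves. Its level was 54.3 ± 3.35 CPM in the J110 libraries against 16.9 ± 3.99 CPM in the SSM3 libraries (SD, n = 3), a log2 fold change of -1.69 (SE 0.14, adjusted p = 1.66e-08).

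Trp53inp1 (chr4:11156431-11174379, forward strand), which encodes a p53-induced nuclear protein linked to cell death and autophagy, was counted 219, 185 and 210 times in the J110 libraries and 105, 111 and 136 times in the SSM3 libraries. The lines did not overlap. The level was 40.9 ± 3.80 CPM in the J110 libraries against 24.7 ± 2.07 CPM in the SSM3 libraries (SD, n = 3), a 1.65-fold lower level (log2 fold change -0.73, SE 0.12, adjusted p = 5.03e-05).

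Zmat3 (chr3:32334792-32366014, reverse strand), an RNA-binding zinc finger protein that p53 induces and that takes part in its tumour suppression, was counted 610, 616 and 559 times in the J110 libraries and 541, 528 and 579 times in the SSM3 libraries. The levels of the lines overlapped, at 118.7 ± 2.76 CPM in the J110 libraries against 115.9 ± 4.22 CPM in the SSM3 libraries (SD, n = 3). The log2 fold change was -0.03 (95% interval -0.20 to 0.13, adjusted p = 0.698), and it was 0.14 with library size only. This interval holds neither a 2-fold lower nor a 2-fold higher level, and it did not overlap the intervals of Ccng1, Mdm2 and Phlda3, which ended at -2.03, -1.22 and -1.38.

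The 3 members that act directly in apoptosis all had a lower mean level in SSM3, but Bbc3 did not pass. The difference between Bax and Bbc3 was not tested. Bax (chr7:45461697-45466898, reverse strand), which encodes the effector that permeabilises the outer mitochondrial membrane, was counted 113, 85 and 97 times in the J110 libraries and 41, 53 and 54 times in the SSM3 libraries, with no overlap. The log2 fold change of Bax was -0.92 (SE 0.17, adjusted p = 1.17e-04), from 19.6 ± 2.55 CPM in the J110 libraries to 10.4 ± 1.11 CPM in the SSM3 libraries (SD, n = 3). An overlapping gene model, Gm45808, had 0 counts in every library.

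Bbc3 (chr7:16308393-16318205, forward strand), the BH3-only protein PUMA, was counted 109, 89 and 87 times in the J110 libraries and 67, 80 and 81 times in the SSM3 libraries. The scaled levels did not overlap but lay close, at 18.9 ± 1.83 CPM in the J110 libraries against 16.0 ± 1.04 CPM in the SSM3 libraries (SD, n = 3). The log2 fold change was -0.24 (95% interval -0.56 to 0.07, adjusted p = 0.148), which did not pass the test.

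Pmaip1 (on chromosome 18, forward strand), the BH3-only protein NOXA, had 104, 113 and 127 counts in J110 and 0 counts in each SSM3 library. All 3 J110 libraries were far above the floor and no SSM3 library held a read. From 23.0 ± 3.27 CPM (SD, n = 3) in J110, the level in SSM3 was at least 34.4-fold lower (adjusted p = 3.25e-10), and each SSM3 library allows up to 3 counts. The genes beside it were looked up after this was seen. Ccbe1, 155.8 kb before it, was counted 737, 675 and 690 times in the J110 libraries and 347, 353 and 363 times in the SSM3 libraries. Mc4r, 392.1 kb beyond it, had 0 counts in all 6 libraries, and the next protein-coding genes on that side, Gnal and Chmp1b, were counted in all 6. Whether the Pmaip1 gene is intact in SSM3 cells was not tested.

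**Figure D2:**
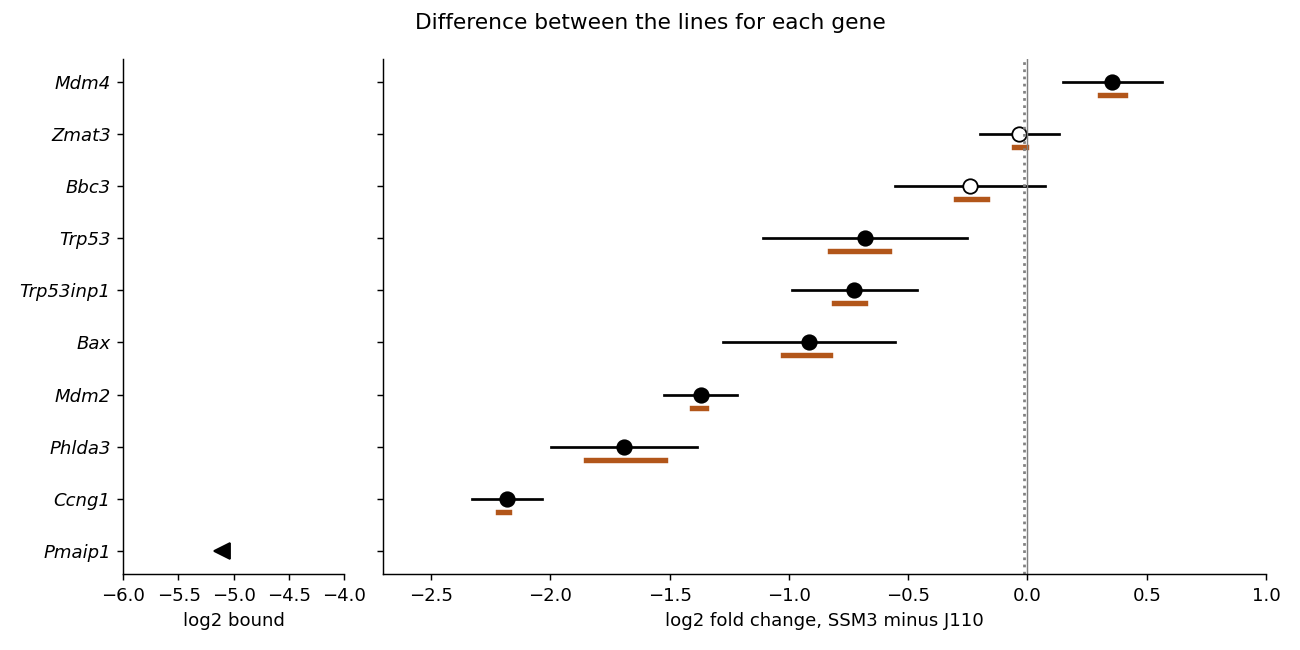
Log2 fold change, SSM3 minus J110, of each of the 10 genes with its 95% interval (black line) and the range over fits that leave out 1 library each (orange line). Filled points passed the test and open points (Zmat3, Bbc3) did not, the dotted line is the median of all genes tested (-0.01), and the left panel shows Pmaip1 as a bound, at least 34.4-fold lower.

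Among the 8 members that p53 induces, leaving out Trp53 and Mdm4, 6 were lower in SSM3, 0 were higher and 2 did not pass, so the 75% that passed lies near the 77.9% of all genes, of which 39.2% were lower. The median log2 fold change of the 8 was -1.14, and that of the 7 with at least 10 counts in every library was -0.93. Their summed level was 1175 ± 18.4 CPM in the J110 libraries against 434.8 ± 2.53 CPM in the SSM3 libraries (SD, n = 3). Over all 10 members the sum was 1232 ± 14.8 CPM in the J110 libraries against 498.5 ± 0.46 CPM in the SSM3 libraries (SD, n = 3). Without Mdm2 and Ccng1 the sum was 332.5 ± 8.70 CPM in the J110 libraries against 247.5 ± 4.50 CPM in the SSM3 libraries (SD, n = 3), so most of the difference in the sum came from these 2 genes. In bulk RNA, fewer cells that express a gene and less RNA of it per cell cannot be told apart.

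Beyond the 10 genes, a list of 33 other p53 targets was compared, of which 30 could be tested. In SSM3, 16 of the 30 were lower (53.3%), 6 were higher (20%) and 8 did not pass, beside 39.2% lower and 38.6% higher over all genes, with a median log2 fold change of -0.51. The 73.3% that passed compares with 77.9% of all genes. With library size only 16 were lower and 9 higher, and with at least 10 counts in every library 12 were lower and 6 higher of 26, with a median of -0.34. The untested genes had few counts: the death receptor gene Fas had 15, 18 and 10 in J110 and 0, 1 and 0 in SSM3, Dram1 had 7, 9 and 1 against 0, 1 and 0, and Spata18 had 1 count in all.

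The split by function is given as counts, and the difference between the groups was not tested. Over all genes 77.9% passed, 39.2% as lower and 38.6% as higher, against which the counts of each group are to be read. Of 8 tested targets that act in cell death, 7 were lower, 0 were higher and 1 did not pass, with a median of -2.25. Of these, Eda2r and Steap3 passed the filter only through J110, and among the other 6, with at least 10 counts in every library, 5 were lower and the median was -1.34. Perp, a membrane protein of p53-dependent apoptosis and of desmosomes, fell from 373.9 ± 14.7 to 69.4 ± 4.91 CPM (SD, n = 3), a log2 fold change of -2.43 (SE 0.08, adjusted p = 8.84e-14). The nuclease gene Aen was lower by less (-0.58, SE 0.09, adjusted p = 2.60e-05). Eda2r, a TNF receptor family member, had 45, 67 and 78 counts in J110 and 0 in each SSM3 library, at least 19.1-fold lower. Steap3 had 79, 93 and 76 counts in J110 against 0, 2 and 1 in SSM3, a ratio of 78.2 (95% counting interval 26.5 to 382), which was 53.5 (18.1 to 261) without SSM3 replicate 1 and 157 (27.9 to 6225) without SSM3 replicate 2.

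Of 8 targets that act in cell cycle arrest, 3 were lower, 3 were higher and 2 did not pass, with a median of -0.14. With at least 10 counts in every library, 2 of 7 were lower and 3 higher. Cdkn1a, which encodes the CDK inhibitor p21 and is the best-known arrest target, was counted 905, 844 and 959 times in the J110 libraries and 432, 406 and 489 times in the SSM3 libraries, without overlap. Its level was 180.5 ± 17.4 CPM in the J110 libraries against 93.2 ± 6.11 CPM in the SSM3 libraries (SD, n = 3), a log2 fold change of -0.95 (SE 0.09, adjusted p = 5.63e-08). Btg2, an antiproliferative gene, went the other way, at 61, 76 and 74 counts in the J110 libraries against 155, 185 and 206 in the SSM3 libraries (log2 fold change 1.45, SE 0.14, adjusted p = 1.09e-07). Gdf15, a secreted TGF-beta family cytokine, was counted 130, 95 and 89 times in the J110 libraries and 1, 0 and 0 times in the SSM3 libraries, a ratio of 297 (95% counting interval 52.9 to 11770) that rests on 1 read. It was 199 (35.4 to 7875) without SSM3 replicate 2 and 192 (34.2 to 7613) without SSM3 replicate 3. Without SSM3 replicate 1, which holds that read, Gdf15 was at 0 in SSM3 and at least 32.7-fold lower. Plk2 did not pass (log2 fold change -0.14, 95% interval -0.36 to 0.08).

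Of 14 targets in DNA repair and metabolism, 6 were lower, 3 were higher and 5 did not pass, with a median of -0.09, which was 0.12 among the 13 with at least 10 counts in every library, of which 5 were lower and 3 higher. Ephx1, an epoxide hydrolase, was counted 223, 204 and 224 times in the J110 libraries and 5, 3 and 3 times in the SSM3 libraries (log2 fold change -5.76, SE 0.23, adjusted p = 1.03e-12). Ephx1 passed the filter on low counts only through J110, where it is high. Ak1, an adenylate kinase, fell from 87.4 ± 4.53 to 4.27 ± 1.71 CPM (SD, n = 3). The ribosomal protein-like gene Rps27l was lower by 1.24 on the log2 scale (from 703.9 ± 46.3 to 298.0 ± 6.73 CPM, SD, n = 3), and the nucleotide excision repair gene Ercc5 had a log2 fold change of -2.24 (SE 0.17, adjusted p = 3.56e-09).

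The genes that act on p53 were then compared. Of 24 family members and regulators, 22 were tested, of which 12 were lower in SSM3 (54.5%), 6 were higher (27.3%) and 4 did not pass, with a median of -0.34. The 81.8% that passed lies near the 77.9% of all genes, of which 39.2% were lower and 38.6% higher. With library size only, 10 were lower and 8 higher. Among the 20 with at least 10 counts in every library, 12 were lower and 4 higher, with a median of -0.43. Of all genes with that filter, 37.3% were lower and 38% higher. Trp63, a p53 family member and a basal epithelial transcription factor, was at 0 in J110 and was counted 6, 7 and 9 times in SSM3, too few for the test, at least 2.46-fold higher. Trp73 had 0 counts in all 6 libraries. The damage kinase gene Atm was counted 181, 161 and 211 times in the J110 libraries and 24, 22 and 22 times in the SSM3 libraries, a log2 fold change of -2.94 (SE 0.19, adjusted p = 3.79e-10). The gene of the p53 ubiquitin ligase Trim24 was higher (log2 fold change 1.44, SE 0.12, adjusted p = 7.31e-09). Rpl11, whose protein binds Mdm2 in ribosomal stress, and the ubiquitin ligase gene Huwe1 were lower, with log2 fold changes of -0.58 (SE 0.08) and -0.42 (SE 0.09).

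Cdkn2a (chr4:89274471-89294653) encodes p16Ink4a, a CDK4 and CDK6 inhibitor, and p19Arf, which binds Mdm2 and frees p53. It had 0 counts in each J110 library and 212, 175 and 216 counts in SSM3, where its level was 42.5 ± 5.04 CPM (SD, n = 3), at least 67.8-fold higher (adjusted p = 1.11e-11). Cdkn2a passed the filter on low counts only through SSM3, where it is high. Both products share the last exons, so 3′ reads do not tell them apart. The neighbouring genes were looked up after this was seen. Cdkn2b, which encodes the related CDK inhibitor p15 and lies 11.6 kb away, had 0 counts in each J110 library too and 40, 28 and 19 in SSM3, at least 9.92-fold higher. Mtap, an enzyme of methionine salvage 93.4 kb away on the other side, was counted 5478, 5502 and 4915 times in the J110 libraries and 186, 211 and 201 times in the SSM3 libraries. Dmrta1, 384.8 kb from Cdkn2a and past Cdkn2b, had 35, 27 and 30 counts in J110 and 0 in each SSM3 library. In J110, the genes on both sides were thus counted in every library while Cdkn2a and Cdkn2b were at 0. Whether the DNA of Cdkn2a and Cdkn2b is present in J110 cells was not tested.

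**Figure D3:**
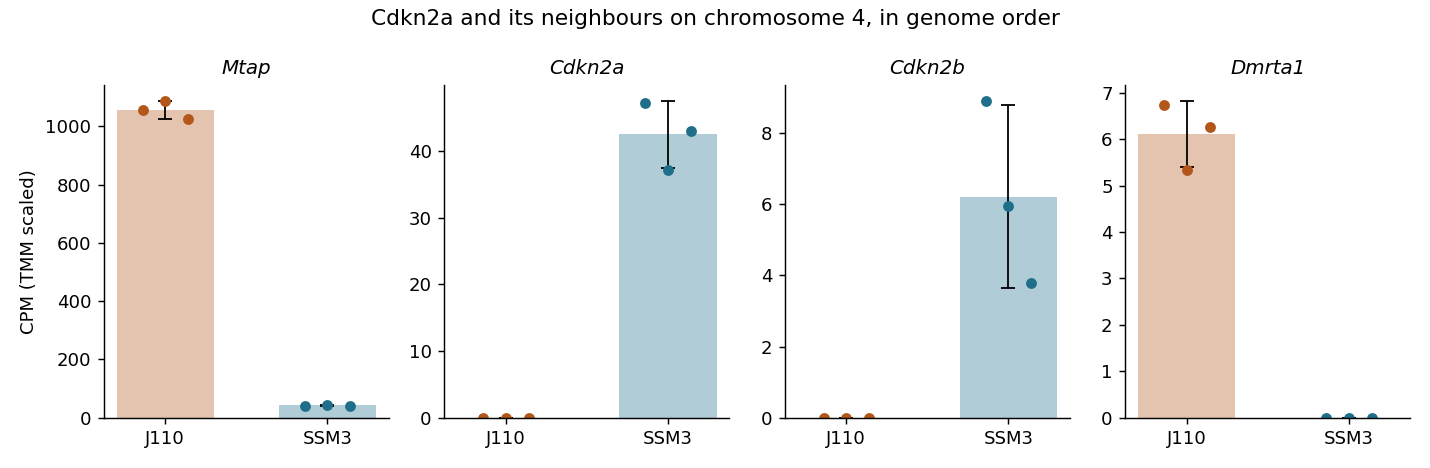
Levels of Mtap, Cdkn2a, Cdkn2b and Dmrta1, drawn in their order on chromosome 4, in CPM after TMM scaling (vertical axes, each gene on its own scale from 0). Points are libraries, bars are means and error bars are SD over 3 libraries. Cdkn2a and Cdkn2b are at 0 in all J110 libraries (orange), and Dmrta1 is at 0 in all SSM3 libraries (blue).

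Genes that p53 represses indirectly, through p21 and the DREAM complex, are mostly genes of mitosis, and 15 of them were tested. In SSM3, 8 were lower (53.3%), 4 were higher (26.7%) and 3 did not pass, with a median of -0.36. The 80% that passed lies near the 77.9% of all genes, of which 39.2% were lower and 38.6% higher, and with library size only 6 were lower and 5 higher. The kinesin gene Kif23 and the checkpoint kinase gene Bub1 had log2 fold changes of -2.08 (SE 0.11, adjusted p = 3.72e-11) and -1.95 (SE 0.13, adjusted p = 4.53e-10). Ccna2, cyclin A2, was lower (-1.09, SE 0.08) and shares exons with Exosc9 on the opposite strand. Birc5, which encodes survivin, was higher (0.27, SE 0.07, adjusted p = 0.00257). The topoisomerase gene Top2a did not pass, at 402.0 ± 23.5 CPM in the J110 libraries against 404.8 ± 30.8 CPM in the SSM3 libraries (SD, n = 3; log2 fold change 0.01, 95% interval -0.15 to 0.17), but did with library size only (0.19, adjusted p = 0.0276). These genes also follow the share of dividing cells, which was not measured here.

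Bax, Bbc3 and Pmaip1 act with other BCL2 family members, of which 10 were tested. In SSM3, 5 were higher, 2 were lower and 3 did not pass, with a median of 0.28, beside 38.6% higher and 39.2% lower over all genes. With library size only 5 were higher and 1 lower. Bik and Bmf passed the filter only through SSM3, and among the 8 partners with at least 10 counts in every library 3 were higher and 3 lower, with a median of -0.06. The BH3-only gene Bcl2l11 (BIM) was counted 59, 60 and 84 times in the J110 libraries and 790, 931 and 894 times in the SSM3 libraries, a log2 fold change of 3.76 (SE 0.13, adjusted p = 1.34e-13). Bmf, another BH3-only gene, was counted 7, 1 and 5 times in the J110 libraries and 105, 95 and 115 times in the SSM3 libraries (log2 fold change 4.64, SE 0.31, adjusted p = 6.20e-10). Bik, a further one, was at 0 in J110 and was counted 32, 35 and 41 times in SSM3, at least 12.1-fold higher. These 3 BH3-only genes were named because they had the largest fold changes of the list. Not every BH3-only gene was higher in SSM3, since Bbc3 did not pass and Pmaip1 was at 0 there. Of the antiapoptotic genes, Bcl2l1 was lower (-0.48, SE 0.08, adjusted p = 3.88e-05), and Mcl1 did not pass (log2 fold change -0.16, 95% interval -0.31 to 0.00, adjusted p = 0.0681), although it passed with upper quartile factors, with limma-voom and with a filter of at least 10 counts in every library (adjusted p = 0.0315, 0.0485 and 0.0408).

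**Figure D4:**
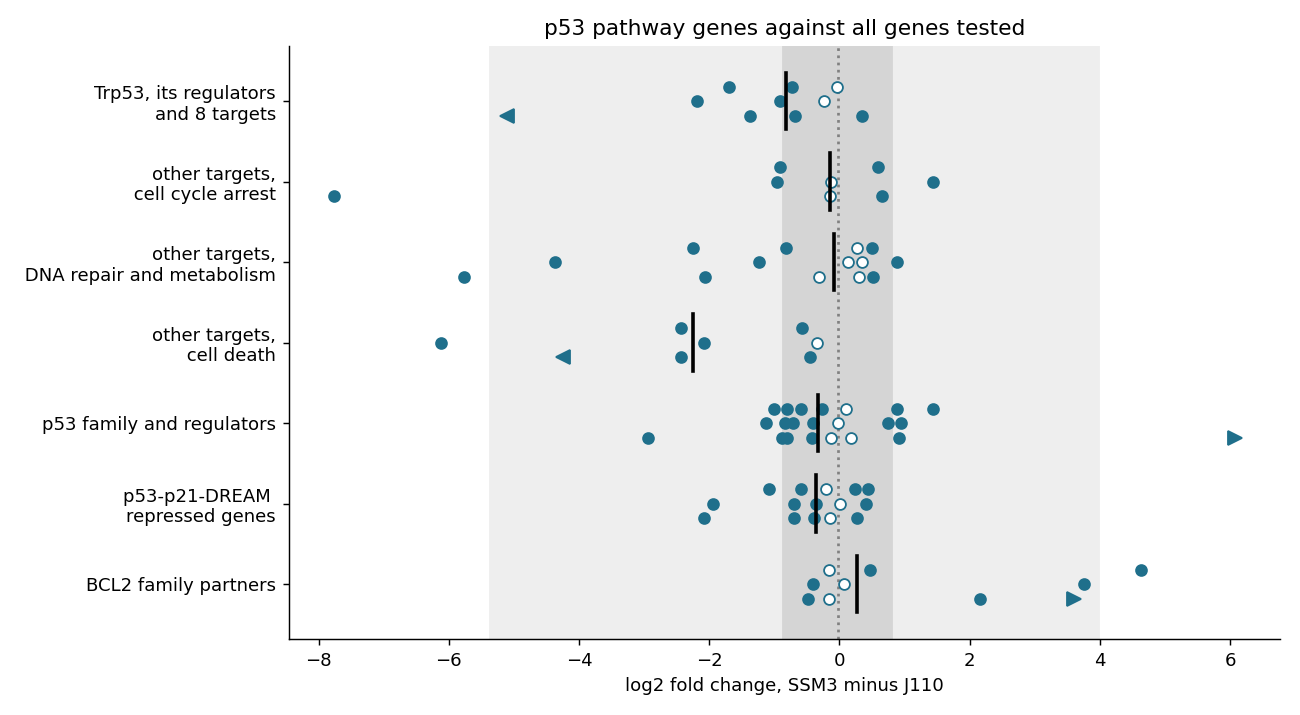
Log2 fold change, SSM3 minus J110, of each tested gene of the 10 members (top row) and of 6 lists of other pathway genes. Filled points passed the test, open points did not, triangles are genes at 0 in 1 line drawn at their bound, black bars are list medians, the dotted line is the median of all genes tested (-0.01), and the dark and light bands hold their central 50% and 90%. The medians of the cell death targets (-2.25) and BCL2 partners (0.28) are -1.34 and -0.06 among genes with at least 10 counts in every library, with Gdf15 and Steap3, which had 1 to 3 counts in SSM3, drawn at fitted values that are no bound.

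Whether these levels are those of an active or of an inactive p53 pathway in either line could not be read from them. Trp53 mRNA was counted in all 6 libraries, all 8 induced members were counted in every J110 library, and 7 of the 8 were counted in every SSM3 library. Between the lines, 5 of the 7 induced members with at least 10 counts in every library were lower in SSM3 and 2 did not pass. Of 26 other targets with such counts, 12 were lower, 6 were higher and 8 did not pass. Of the 15 genes repressed through p21 and the DREAM complex, all with such counts, 8 were lower, 4 were higher and 3 did not pass. Over all genes with that filter, 37.3% were lower and 38% were higher. The libraries analysed here include none of either line with p53 activated, lost or inhibited, and no measurement of p53 protein. Trp53 mutations were not analysed here.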

How the data were processed

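RNA of cultured J110 and SSM3 cells, 3 biological replicates each, was sequenced from its 3′ ends. Per the submitters' processing notes and the methods, the authors trimmed reads with cutadapt (2.1), mapped them to mm10 with HISAT2 (2.0.4) and counted them per gene with featureCounts of Subread (2.0.0). The deposited values are raw counts with no normalisation. The strand setting and annotation release are not given in the sources used here. All 6 libraries were used, grouped by the cell line in their labels. Total counts ranged from 4200785 to 5416305. Of the gene identifiers, 52489 (99.7%) matched GENCODE M21 (GRCm38), which gave symbols, coordinates and exon overlaps.

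filterByExpr removed genes with low counts, TMM factors scaled the libraries, and the lines were compared by edgeR's quasi-likelihood test (edgeR 4.0.16, limma 3.58.1, R 4.3.3), SSM3 minus J110, with Benjamini-Hochberg adjustment over the 12284 genes that passed and a threshold of 0.05. SE is the log2 fold change over the square root of F, and 95% intervals come from the same test. The biological coefficient of variation was 8.30%. Replicates of 1 line differed by more than sampling noise (chi-square per degree of freedom 2.21 to 5.62), and none was a copy. Genes with 1 to 3 counts in all in 1 line have a ratio with an exact counting interval. The sources used here do not say that replicate numbers pair the libraries, and the main fit did not pair them. The test was also run on simulated counts in which far fewer genes changed than here, which checks its code and not the calls in these data.

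The members and gene lists were chosen with earlier results of these data known. Named are all 10 members, in each other list the 2 genes with the highest mean CPM and the 3 that passed with the largest fold changes, and Cdkn1a, Cdkn2a, Trp63, Trp73, Gdf15 and Ncoa3. Another gene that the rule names is not reported here. Untested genes, markers, overlapping genes, pseudogenes and neighbours were named after their values were seen. Alternatives covered scaling, DESeq2 (1.42.0), limma-voom, glmTreat, filters, threshold, a replicate block and leaving out each library. Promoter windows came from RefSeq (GRCm38.p6). Other cell lines, tamoxifen treatment, staining and flow cytometry were not analysed here.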

Additional observations from a re-analysis of the deposited data

How the results depend on the processing

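The 7 lower members and the 1 higher member were called under the other scalings, DESeq2, limma-voom, the stricter threshold of 0.01 and without each library in turn. A filter of at least 10 counts in every library left no value for Pmaip1, Eda2r, Gdf15 or Cdkn2a, among others, and 7 members were then called. A test against a 2-fold change (glmTreat) lowered the counts called by its construction, to 4272 of all genes, 4 members, all 4 lower and 0 higher (Mdm2, Ccng1, Phlda3 and Pmaip1), 12 other targets, 3 regulators, 2 DREAM genes and 4 BCL2 partners. Under it Trp53, Mdm4, Trp53inp1 and Bax lost their call (adjusted p of 1, 1, 1 and 0.870).

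Over 39 named genes, 655 values were recomputed: 623 kept direction and side of the threshold, 19 no longer passed, 4 newly passed and 9 changed sign, none of the last in a gene that had passed. With library size only, the median of all genes, on the log2 scale, moved from -0.014 to 0.161, and Zmat3 became 0.141, Plk2 0.033 and Mcl1 0.021. Top2a became -0.020 with upper quartile factors and -0.007 with the filter of 10 counts, lay between -0.026 and 0.077 without single libraries, and passed at 0.187 with library size only (adjusted p = 0.0276). A replicate block left 8 members and called 9481 genes. Deviations of same-numbered libraries correlated at 0.012, 0.015 and 0.027, and although each library correlated best with its own number, this is a hint from the data only. A count of 0 in a library allows a level of up to 3 counts, or 0.578 to 0.668 CPM. The part of the culture medium and the strain in any result was not tested.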

Other observations

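On the side of Pmaip1 beyond Ccbe1, Lman1, which encodes a cargo receptor of the endoplasmic reticulum, was counted 814, 742 and 764 times in the J110 libraries and 1289, 1286 and 1260 times in the SSM3 libraries. Gnal, 622.7 kb from Pmaip1 on its other side, was counted 18, 19 and 23 times in the J110 libraries and 78, 76 and 83 times in the SSM3 libraries, and Chmp1b, 739.8 kb away, was counted 151, 133 and 134 times in the J110 libraries and 100, 110 and 98 times in the SSM3 libraries. These genes were chosen after the Pmaip1 counts were seen. Among the regulators not named above, the deubiquitinase gene Usp10 was higher in SSM3 (log2 fold change 0.88) and shares exons with Gm20388, and the coactivator gene Crebbp was lower (-0.83), while its relative Ep300 did not pass (0.10, adjusted p = 0.374). The BH3-only gene Bad was counted 110, 127 and 118 times in the J110 libraries and 463, 463 and 582 times in the SSM3 libraries, and shares exons with Gpr137 on the opposite strand. These 4 genes were also chosen after their values were seen.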
